A study of Mus musculus with 4 samples.

Results

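Mouse orthologues of 32 genes linked to the risk of Alzheimer disease and related dementias, many of them active in microglia, were examined for chromatin sites listed in a ChIP-seq experiment on the glycolytic enzyme GAPDH. The genes were taken from a named list, and all 32 were found in the gene table among 21779 protein-coding genes. A gene was counted as having a peak where a peak's summit, its point of highest read pileup, lay in the gene or within 5 kb of it. By this rule 4 of the 32 genes had a peak, namely Picalm, Cst3, Adam10 and App, and 28 had none.

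The libraries came from microglia (the brain's own macrophages) isolated from the cortex of C57BL/6 mice with beads against CD11b, a surface protein of myeloid cells. All mice had received lipopolysaccharide (LPS), a bacterial product that triggers inflammation, by intraperitoneal injection on 4 consecutive days. Chromatin was precipitated with an antibody named AceGAPDH (2 libraries) or kept as input (2 libraries), and the series was set up to find genomic targets of GAPDH that has moved into the nucleus. The labels give no age or sex, do not say whether animals were pooled, and list no untreated mice. The beads select all CD11b-positive cells, so other myeloid cells of the tissue would be retained with microglia. The files hold 1 list of 722 peaks for the series as a whole, read here as precipitate against input from its name, which the file itself does not settle. Scores ran from 50.03 to 1479.61 (median 56.57) and heights from 5 to 108 (median 8.0). Several peaks, with scores from 57.46 to 1479.61, shared the height of 108, and whether heights were capped is not stated. There is no value per library, so no replicate error can be given and no difference between conditions can be tested. Depth per library is unknown.

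Several of the risk genes act on a common route. The amyloid precursor protein, encoded by App, is cut either by alpha-secretase, for which Adam10 encodes the main enzyme, or by beta-secretase and then the gamma-secretase complex, to which Psen2 contributes a catalytic subunit. The latter cuts release amyloid beta. Picalm, Bin1, Cd2ap, Rin3 and Sorl1 act in endocytosis and in the sorting of membrane cargo such as the precursor. Microglia recognise lipids and amyloid through receptors such as TREM2, and Spi1 encodes PU.1, a transcription factor that sets microglial identity. Cst3 encodes cystatin C, a secreted inhibitor of cysteine proteases and among the most abundant transcripts of microglia.

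The Picalm and Cst3 peaks lay beside the transcription start, so the bases just upstream of these starts are shown, 5′ to 3′ on the strand of the gene. They are RefSeq promoter sequences of GRCm38.p6, the assembly that mm10 represents, covering chr7:90129963-90130212 (plus strand) for Picalm and chr2:148875513-148875762 (minus strand) for Cst3. Capitals mark GC boxes (GGGCGG on either strand, the core read by Sp1 and KLF factors) and, in Picalm, the palindrome GTCACGTGAC, the CLEAR element read by the lysosomal regulator TFEB and its relatives. The third sequence is the part of the Picalm peak itself that a RefSeq promoter entry covers, chr7:90129671-90129724 on the plus strand.
Picalm upstream: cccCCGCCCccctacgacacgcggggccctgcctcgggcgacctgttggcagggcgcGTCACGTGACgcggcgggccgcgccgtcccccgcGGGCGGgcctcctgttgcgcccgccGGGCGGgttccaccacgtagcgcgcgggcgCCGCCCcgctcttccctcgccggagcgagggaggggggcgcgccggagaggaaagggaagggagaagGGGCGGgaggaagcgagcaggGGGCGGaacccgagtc
Cst3 upstream: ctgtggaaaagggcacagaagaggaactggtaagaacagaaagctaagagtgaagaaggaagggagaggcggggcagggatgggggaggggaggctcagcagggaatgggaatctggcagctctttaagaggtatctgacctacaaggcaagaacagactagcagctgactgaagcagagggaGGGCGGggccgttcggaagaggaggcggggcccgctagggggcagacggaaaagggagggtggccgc
Picalm peak part: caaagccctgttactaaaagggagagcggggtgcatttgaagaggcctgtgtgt

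Neither upstream window contained its peak. The Picalm peak ended 114 bp before the first base of the window shown, and the Cst3 peak began 37 bp beyond the end of its promoter entry, which runs 50 bases into the gene. The Picalm window had 39 CpG dinucleotides in its 250 bases and a GC content of 79.2%, and 98.4% of 32851 promoter windows of the same length had fewer CpGs. It held 6 GC boxes, and GC boxes occurred in 32.7% of all windows. The CLEAR palindrome began 193 bp upstream of the start. Its letters were copied from the Picalm window itself, so the match there was fixed in advance. These exact letters were present in 0.240% of all windows. The palindrome contains the shorter E-box CACGTG, which 6.02% of all windows hold. Of the 35 windows of risk genes, 6 held the E-box (Picalm, Adam10, Plcg2, Psen2, Slc24a4 and Sorl1) and 17 a GC box, so both also occurred at risk genes without a peak. The Cst3 window had 8 CpGs, a GC content of 59.6% and 1 GC box, 67 bp upstream of the start. The median over all windows was 6.0 CpGs and 52.4% GC. The 54 bases of the Picalm peak shown, 30.3% of the peak, had 1 CpG and 51.9% GC. Of 35 promoter windows for 26 of the 32 risk genes, 1 (Inpp5d) held the PU.1 site GAGGAAGT, close to the 2.44% of all windows. Shorter forms of this site were not searched. The AP-1 site TGANTCA (6.75% of all windows) and the CCAAT box, CCAAT (33.8%), were also searched and had no match in the Picalm or Cst3 window. Motifs were searched on both strands and chosen after these sequences had been seen, and a match shows letters, not occupancy. Bin1, Clu, Ms4a6d, Abi3, Ptk2b and Spi1 had no promoter entry.

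Across the genome, 435 of 21779 coding genes (1.997%) met the same 5 kb rule, against 12.5% of the risk genes (4 of 32). Picalm and Cst3 had been named in earlier work on these data. Without them the share was 2 of 30 (6.67%). Longer genes offer more room for a summit. The median length was 36.0 kb for the risk genes and 17.2 kb for all coding genes, and 75.6 kb for the coding genes with a peak. Among coding genes under 10 kb, 0.573% had a peak, and among the 5 risk genes of that size it was 1, Cst3. Between 10 and 100 kb the background was 1.71%, and 1 of 17 risk genes, Picalm, had a peak. Over 100 kb it was 7.95%, and 2 of 10, Adam10 and App, had a peak. These counts are descriptions of 1 list, and the genes are not replicates. The median score of the 4 peaks was 65.03 and the median height 9.5, where the nearest peaks of all 435 coding genes had medians of 56.54 and 8.0. The peaks of Picalm and Cst3 stood above 56.54 in score, that of Adam10 equalled it and that of App was below it, as the plot of score against height shows. The higher median score thus rests on Picalm and Cst3, the genes named in earlier work.

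**Figure D1:**
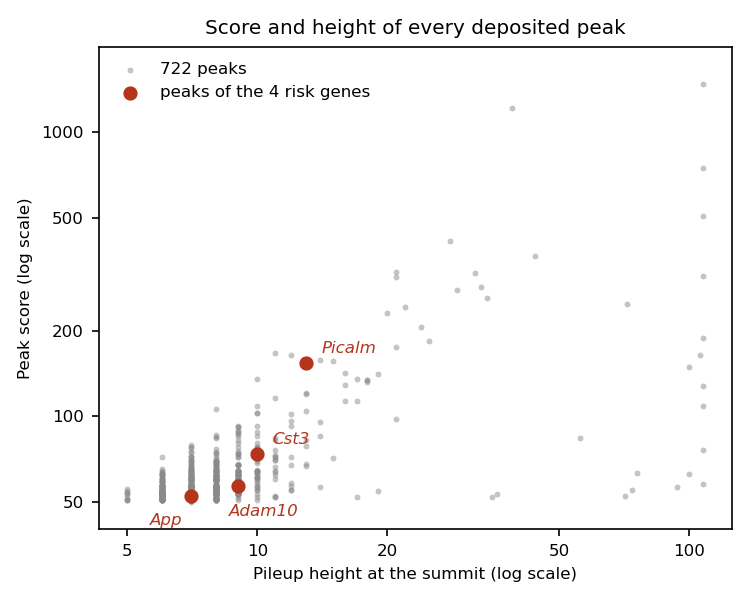
Score (vertical, log scale) against pileup height at the summit (horizontal, log scale) of every deposited peak, in grey, with the peaks of the 4 risk genes in red. Picalm (score 153.45) stands at the top of the peaks of height 13, Cst3 (73.51) lies in the upper part of those of height 10, and Adam10 (56.54) and App (52.33) lie below the median score of the list (56.57).

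Picalm encodes a clathrin assembly protein that selects cargo for endocytosis. The gene (RefSeq identifier 233489) spans 90130192 to 90209447 on the plus strand of chromosome 7, and its single peak ran from 90129671 to 90129848 (178 bp). The peak had a score of 153.45, rank 26 of 722, and a height of 13, with an exact Poisson 95% interval of 6.92 to 22.2 that covers counting error only. The summit at 90129768 lay 424 bp upstream of the gene and 445 bp upstream of its annotated transcription start. Of 25 summits within 1 kb of the start of a coding gene with known strand, the Picalm summit had the highest score. The next were those of Ift172 (105.78) and Atxn3 (92.39). Of the peaks at Gapdh, 3 that score higher lay between 274 and 959 bp from the last base of that gene and not at its start. Among the 8 peaks of height 13, scores ran from 66.54 to 153.45 with a median of 93.38, and Picalm had the highest.

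The Picalm summit also lay inside 2310010J17Rik, a long non-coding RNA gene on the opposite strand (90124836 to 90129936). The 2 genes point away from each other, with 255 bp between them. RefSeq gives 2310010J17Rik 2 transcription starts, and the summit lay 168 bp downstream of the first and 294 bp short of the other. The list cannot tell which of the 2 genes the site belongs to. The promoter entry at the other start covers 54 of the 178 bases of the peak, and only 5 of 722 peaks (0.693%) overlapped any promoter entry. A further peak lay 89.9 kb upstream of Picalm, in the long non-coding RNA gene E230029C05Rik (score 96.05, height 12), and Eed was the coding gene nearest to it. The peaks closest to Picalm in score were 2 of the Gapdh peaks (156.41 and 163.68), the one near Malt1 (157.55), and peaks of heights 100 and 106 outside coding genes, nearest to Ly6c2 (148.67) and Lrrc4c (164.6).

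**Figure D2:**
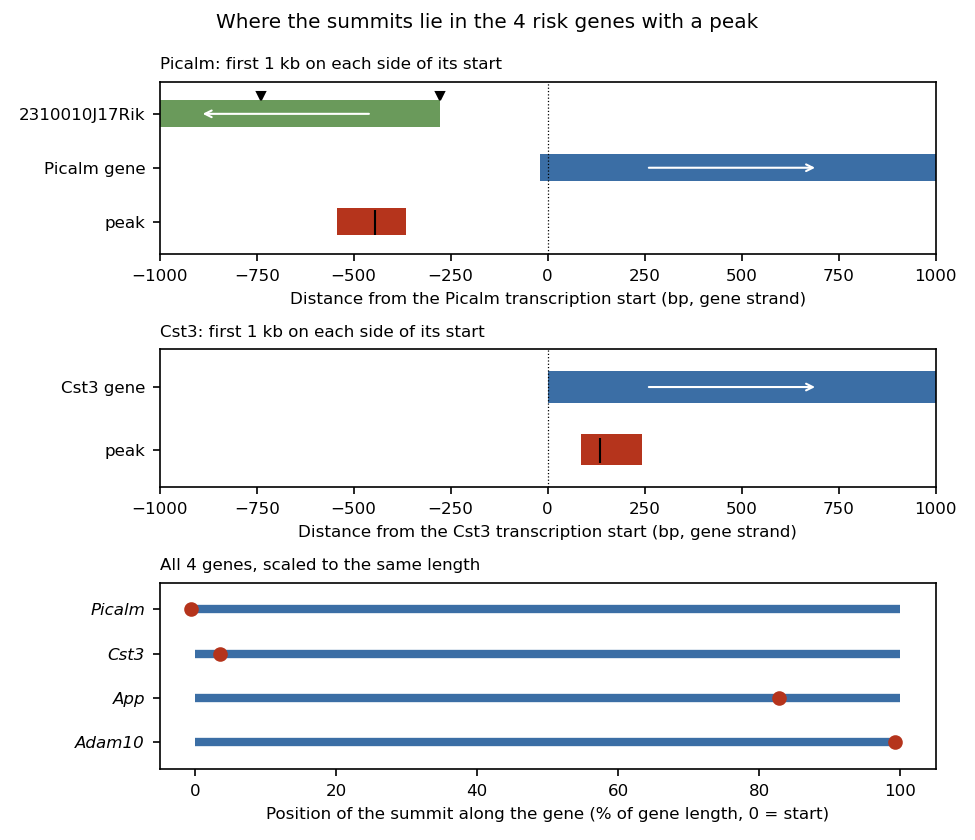
The upper panels show the Picalm and Cst3 starts, with distance from the transcription start in bp along the horizontal axis, the peak in red, its summit as a black line, the genes as bars, white arrows for the direction of transcription and black triangles for the starts of 2310010J17Rik. The lower panel places the summit (red) along each gene scaled to the same length, in percent, and shows Picalm and Cst3 at the start, Adam10 at 99.3% and App at 82.8%.

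Cst3 (gene 13010) occupies only 3791 bp of chromosome 2, from 148871722 to 148875512 on the minus strand. Its peak ran from 148875269 to 148875425 (157 bp), inside the gene, scoring 73.51 (rank 96) at a height of 10 (Poisson 95% interval 4.80 to 18.4). The summit lay 135 bp downstream of the transcription start, at 3.56% of the gene's length. This score was sixth in order among the 25 summits at gene starts, whose median was 56.54, close to the 56.57 of the whole list. Of the 45 peaks of height 10, 14 scored higher than Cst3, and their median was 64.52. No other gene of the table held this summit. The closest scores in the list belonged to peaks inside Stxbp6 (73.51) and Dhrs7b (73.35) and outside Trim25 (73.69), Rusc1 (73.21) and Gm20855 (73.21).

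Of the 26 risk genes with known strand, 2 (Picalm and Cst3) had a summit within 1 kb of the gene start, where 0.149% of 17492 coding genes with known strand did. These are the 2 genes already known from these data, and without them the count is 0 of 24. The last base of the gene was within 1 kb of a summit in 1 of the 26, Adam10, against 0.0686% of coding genes. With either end counted and strand ignored, 3 of 32 risk genes and 0.234% of coding genes had such a summit, and 1 of 30 risk genes, Adam10, without Picalm and Cst3. In the whole genome 26 coding genes had a summit at the start and 12 at the last base, so each share rests on few genes.

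The peaks of Adam10 and App, the alpha-secretase and its substrate, lay far from the starts of these genes. Both scored below the median of the list (56.57), Adam10 (56.54) only just. Adam10 (gene 11487, chromosome 9, 70678944 to 70780229, plus strand) had its peak from 70779416 to 70779537 (122 bp), scoring 56.54 at a height of 9 (Poisson 95% interval 4.12 to 17.1). The summit lay 100535 bp from the gene start and 750 bp before the last base, at 99.3% of the gene. Its score ranked 363 of 722 and was shared by 33 peaks, and 65 of the 94 peaks of height 9 scored higher. A stronger peak (score 67.44, height 12) lay outside the window, 15.0 kb upstream of Adam10, in the long non-coding RNA gene Gm31872, and nearer to the deubiquitinase gene Mindy2 (6072 bp). App (gene 11820, chromosome 16, 84952666 to 85175255, minus strand) had its peak from 84990867 to 84991012 (146 bp), scoring 52.33 at a height of 7 (Poisson 95% interval 2.81 to 14.4). This summit lay 184306 bp into the 222590 bp of the gene, at 82.8% of its length. Of the 187 peaks of height 7, 144 scored higher, and App ranked 611 in the list. Its score was shared by peaks in Arhgef28, Niban1 and Cbfb and one nearest to Acvr2a, and the next score belonged to a peak in G3bp2 (52.31). Exon and intron positions were not analysed here. Of the other genes of precursor cleavage and clearance, Psen2 had its nearest summit at 1578 kb, and Ace, whose peptidase can degrade amyloid beta, at 467 kb.

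**Figure D3:**
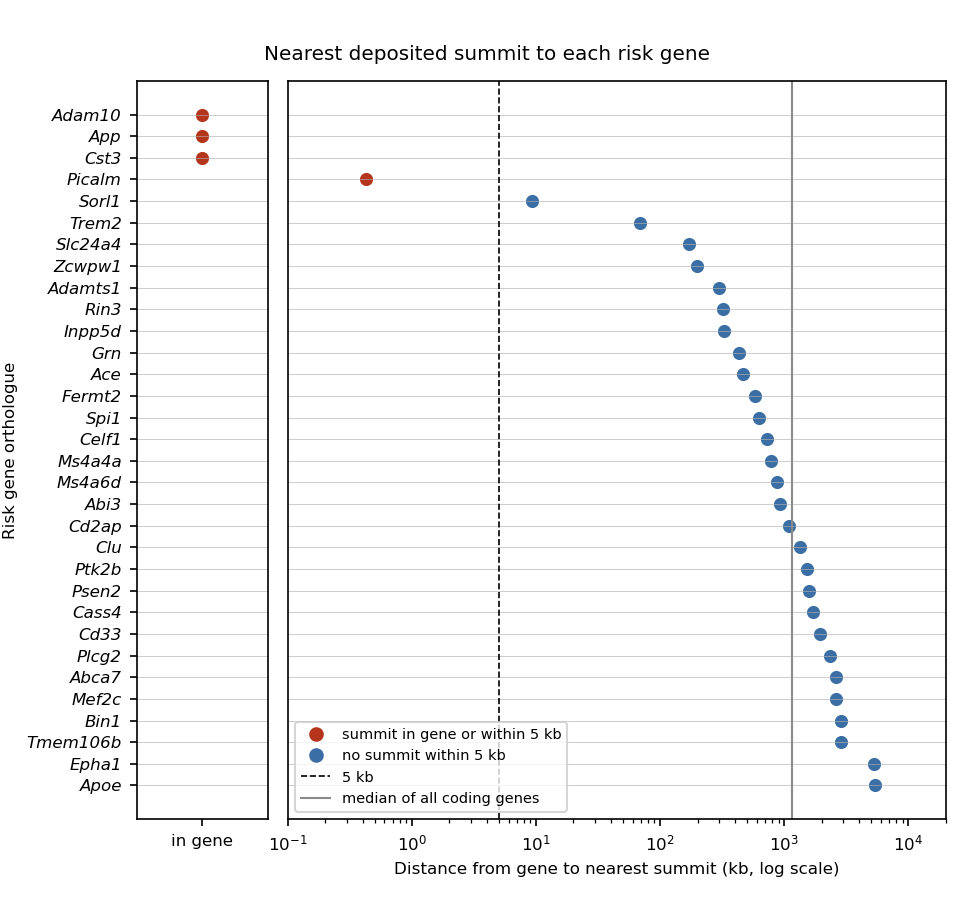
Distance from each of the 32 risk genes to the nearest summit, in kb on a log scale, with summits inside a gene in the left panel, the 5 kb limit as a dashed line and the median of all coding genes as a grey line. After the 4 genes with a peak (red), Sorl1 at 9.23 kb and Trem2 at 68.3 kb stand closest, and Apoe at 5375 kb farthest.

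The first gene outside the 5 kb limit was Sorl1, which encodes a receptor that sorts the amyloid precursor away from the endosome, with a summit 9234 bp upstream of its start (chromosome 9, 42133456 to 42133652, score 61.83, height 8). The summit nearest to the limit from within was that of Picalm, at 424 bp, and no risk gene lay between these 2 distances. Sorl1 was the coding gene nearest to that peak, and no gene of the table held the summit. Of the other genes of endocytosis and sorting, Rin3, a Rab5 exchange factor gene, had its nearest summit at 324 kb. Cd2ap, an adaptor gene, had it at 1086 kb and Bin1, a membrane-bending protein gene, at 2844 kb. The group thus had 1 of 5 genes with a peak, against 1.997% of all coding genes. That 1 gene is Picalm, already named in earlier work on these data, so the count says nothing about the group.

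The remaining groups are small, and at the background of 1.997% a count of 0 says nothing about any of them. The 10 genes for receptors and their signalling had no peak. Trem2, the lipid receptor gene of microglia, was closest, with a summit 68.3 kb downstream inside Apobec2 (score 50.54, height 8) and another at 82.5 kb (score 54.22, height 8). Inpp5d, whose lipid phosphatase dampens such receptors, followed at 326 kb. The membrane protein genes Ms4a4a and Ms4a6d had their nearest summits at 788 and 881 kb, the cytoskeletal adaptor gene Abi3 at 921 kb, the tyrosine kinase gene Ptk2b at 1516 kb and Cass4, a scaffold protein gene, at 1712 kb. Cd33, a sialic acid receptor gene, stood at 1923 kb, Plcg2, a phospholipase gene, at 2348 kb and Epha1, an ephrin receptor gene, at 5287 kb. The 3 genes for lipid carriage and transport had no peak. Clu, the clusterin gene, lay 1331 kb from a summit, the lipid transporter gene Abca7 2588 kb, and Apoe, which encodes the main lipid carrier of the brain, 5375 kb, the largest distance of the 32.

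The 4 genes for transcription and RNA had no peak. Spi1 lay 624 kb and its neighbour Celf1, an RNA-binding protein gene, 720 kb from the same summit. Zcwpw1, a histone reader gene, lay 198 kb from its nearest summit and Mef2c, a transcription factor gene, 2619 kb. Beside Cst3, the lysosomal genes Grn, which encodes progranulin, and Tmem106b lay 431 and 2883 kb from a summit. The nearest peak to Tmem106b was the highest-scoring of any near a gene without a peak (176.0). Fermt2, which encodes the integrin activator kindlin-2, stood at 579 kb, the matrix protease gene Adamts1 at 296 kb and the cation exchanger gene Slc24a4 at 170 kb. The 28 genes without a peak had 25 different nearest summits, because Rin3 and Slc24a4, Celf1 and Spi1, and Clu and Ptk2b share theirs, and 13 of the 28 lay over 1000 kb from any summit. Only sites past the caller's limit were deposited, so the absence of a peak from the list does not show that GAPDH was absent from a gene.

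The median distance to a summit was 754 kb for the 32 risk genes (quartiles 272 and 1765 kb) and 1146 kb for all coding genes (406 and 2522 kb). Among genes without a peak it was 901 kb for the 28 risk genes and 1183 kb for the other set, all coding genes without a peak. Within 100 kb of a summit lay 18.8% of risk genes and 8.48% of coding genes, and within 1000 kb 59.4% and 46.0%. Between 10 and 50 kb no risk gene was added to the 5 within 10 kb. Distances were taken from the gene body, and the risk genes are longer (median 36.0 kb against 17.2 kb). No background of matched length was taken for these distances. The shares and the median over all 32 risk genes include Picalm and Cst3.

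**Figure D4:**
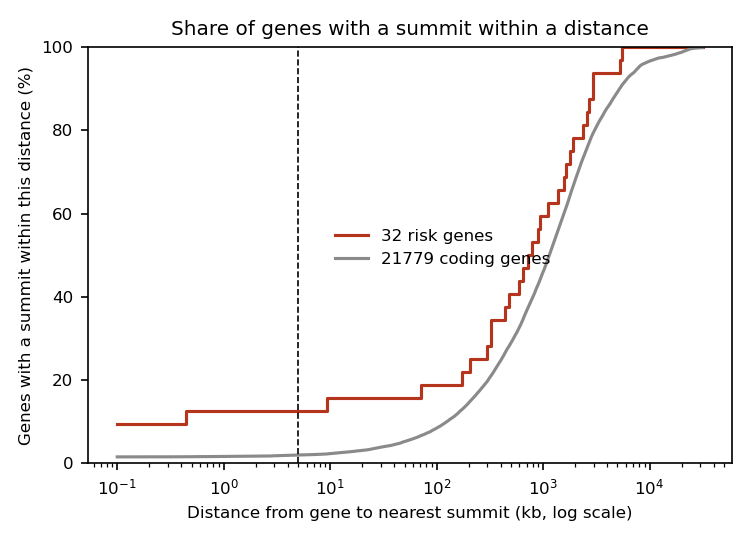
Percentage of genes (vertical) that have a summit within a given distance (horizontal, kb, log scale), for the 32 risk genes in red and all 21779 coding genes in grey, with the 5 kb limit dashed. The red line starts at 9.38% for genes holding a summit, against 1.55% of coding genes, and reaches 59.4% at 1000 kb, against 46.0%. It includes Picalm and Cst3, and gene lengths were not matched.

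Of 56 endocytic and lysosomal genes outside the risk list, 1 had a peak (1.79%), close to the 1.997% of all coding genes. It was Cltc, the clathrin heavy chain gene, with a peak inside it (score 54.9, height 8). None of the genes for the AP-2 adaptor, dynamins or cathepsins in this list had one, which says nothing about them at that background. Of 57 further dementia risk genes, 2 had a peak (3.51%). Wwox, an oxidoreductase gene of 913078 bp, held one (score 50.54, height 8). The Sharpin summit lay 4605 bp outside that gene and nearer to Cyc1, at 1078 bp (score 57.13, height 7). Among 22 markers of microglia, 2 had a peak (9.09%), Cst3 and Sall1, a transcription factor gene of microglial identity (score 53.41, height 6). Cst3 is itself one of the risk genes and had been named in earlier work on these data. Of 14 genes raised in disease-associated microglia, Apoe included, none had. Border and blood myeloid markers (8), oligodendrocyte (5), neuron (5) and endothelial markers (4) had none, and 1 of 5 astrocyte markers did, Slc1a3 (score 63.66, height 9). At the background of 1.997%, the absence of a peak from lists this small says nothing about them, and the lists cannot be contrasted. A peak list holds no expression, so the labelled cell type could not be checked against these markers.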

How the data were processed

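ChIP-seq peaks were analysed from 4 libraries, 2 precipitated and 2 input, as 1 deposited list. The submitters' processing notes name MACS, Bowtie2 and FastQC, with mm10 as genome build. Tool versions and settings, and the libraries that entered the call, are not given here by any source. The authors deposited a score per peak, whose scale is not stated, and a whole-number pileup signal per summit, called height. Both were used only to describe and rank peaks. Positions are 1-based.

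Genes came from a RefSeq table of GRCm38.p6 with 49943 genes on 21 chromosomes. Outside chromosome Y, 340 genes placed within the first 3 Mb were dropped, since these rows appear to carry scaffold coordinates. Strand and transcription starts came from a RefSeq promoter table (250 bases before to 50 after each start), which gave a strand for 17492 of 21779 coding genes. All 32 risk genes were matched by symbol. Of the other listed genes, Slc2a4rg was not found.

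Intervals of heights are exact 95% Poisson intervals and assume that a height counts independent fragments. No test was run, because the list has no replicates. The named genes are all 32 risk genes, listed genes with a peak, and the genes at the 5 peaks nearest in score to each risk gene's peak, with ties taken in order of peak name. Non-coding and neighbouring genes at or near these peaks, and Ift172 and Atxn3, were named after their values were seen. Those nearest in score to the Adam10 peak are not reported here. Genes were grouped by role by hand. The risk genes, lists and groups were chosen with earlier results of these data known. The assignment of summits to genes was tested on simulated positions. The work used Python 3.11.15 with scipy 1.17.1, pandas 2.3.3, numpy 2.4.6 and, for plots, matplotlib 3.10.9.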

Additional observations from a re-analysis of the deposited data

How the results depend on the processing

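The 4 risk genes with a peak remained the same 4 with a 1 kb window, with any base or the centre of the peak in place of the summit, without peaks of height 20 or more, and with each peak given to its nearest coding gene only. In these settings between 1.67% and 2.002% of coding genes had a peak. The count was 3 with summits inside genes only (Picalm left out), 5 within 10 or 50 kb (Sorl1 added) and 6 within 100 kb (Trem2 added). The share of all coding genes with a peak rose with each wider window. From 10 to 50 kb that share rose while the count of risk genes did not, so the contrast between them became smaller. The count of risk genes fell to 2, Picalm and Cst3, among the 362 peaks that reached the median score and among the 267 with a score of at least 60, where 0.983% and 0.707% of coding genes had a peak. It fell to 1, Picalm, among the 48 peaks with a score of at least 100, where 0.101% of coding genes had one. Without Picalm and Cst3, a choice made after seeing the data, the count was 2, Adam10 and App. Adam10 (56.54) fell only just short of the median score (56.57). The count at gene ends was 3 and became 2 with a 500 bp limit or among peaks that reached the median score, without Adam10. Without Picalm and Cst3, also chosen after seeing the data, it was 1, and 0 at gene starts. With fewer peaks the median distance rose by construction, from 754 to 2402 kb among peaks that reached the median score. For the other lists, alternatives were also added after seeing the data. Among peaks that reached the median score, microglial markers with a peak went from 2 to 1, endocytic and lysosomal genes from 1 to 0 and further dementia risk genes from 2 to 1. The last count was also 1 with summits inside genes only. No paired analysis was possible because the list holds no value per library, and no library could be left out for the same reason. Low heights limit every statement here. The Poisson intervals of all 4 peaks overlap, but they bear on heights only, not on positions, counts of genes or distances. They also make no allowance for the choice of each summit as the highest point of its peak.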
